A study of Mus musculus with 8 samples.

Results

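Barcodes open at endothelial genes are DNA barcodes, each meant to mark a single nucleus, that had Tn5 fragments in 2 or more of 11 endothelial genes. Members were chosen on measured values: a barcode was taken when the midpoints of its fragments fell in at least 2 different genes of Cavin2, Ptprb, Cldn5, Nova2, Tie1, Cdh5, Egfl7, Kdr, Plvap, Tspan18 and Tek, each counted over its body plus 5 kb upstream. In the single-cell set purified with reverse crosslinking (+RV), 486 of 18620 barcodes were members, or 2.61%. In the set purified without it (−RV), 64 of 2406 barcodes were members, or 2.66%. Together they were 550 of 21026 barcodes. How many barcodes would reach 2 genes through unrelated fragments alone was not tested.

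Spleens of young adult C57BL/6J mice of both sexes, fixed in formalin and embedded in paraffin (FFPE), were the source of the nuclei, and neither a genetic change nor a treatment of the animals is named for either group. In the scATAC-Seq experiment the nuclei were tagmented in barcoded Tn5 reactions, mixed, barcoded further by split-pool ligation and then divided between a tube with and a tube without reverse crosslinking buffer. GEO lists 2 single-cell samples per condition, and the deposited fragments pool both, so each condition was 1 set without replicates and no p-value is given. Bulk ATAC-Seq of the same tissue was deposited as peak lists of 2 libraries per condition.

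Endothelial cells line the blood and lymph vessels. They are held together by junction proteins such as VE-cadherin and claudin-5 and respond to vascular endothelial growth factors, angiopoietins and bone morphogenetic proteins through receptors on their surface. Transcription factors of the ETS and SOX families set their identity, and Notch signalling separates arteries from veins. In the spleen, blood passes from arterioles into the red pulp and returns through venous sinuses, whose lining cells carry scavenger receptors such as stabilin-2.

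Open DNA of the members at loci that the rule did not use is shown first, because these stretches lie at genes described below. Regions were merged from the bulk peaks and kept when found in 2 or more of the 4 bulk libraries, outside promoters and exons. Each stretch is 300 bp of the plus strand of mm10 (RefSeq GRCm38.p6) centred on the summit, and capitals mark a match to 1 of 8 short motifs. The motif is GATA in the Shank3 stretch, SOX on the reverse strand in Efhd1, PU.1 in Eng and AP-1 in Timp3. They were picked after their values were seen, as stretches with at least 5 member fragments. Such regions were sought at 32 genes, and 8 regions had that many.
Shank3, upstream (chr15:89497736-89498035): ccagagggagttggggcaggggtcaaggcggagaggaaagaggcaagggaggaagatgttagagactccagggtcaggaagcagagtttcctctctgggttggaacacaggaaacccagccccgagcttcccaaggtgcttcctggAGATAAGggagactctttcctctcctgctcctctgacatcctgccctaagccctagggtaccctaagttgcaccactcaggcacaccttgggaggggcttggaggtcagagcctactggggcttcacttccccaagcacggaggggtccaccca
Efhd1, intron (chr1:87273545-87273844): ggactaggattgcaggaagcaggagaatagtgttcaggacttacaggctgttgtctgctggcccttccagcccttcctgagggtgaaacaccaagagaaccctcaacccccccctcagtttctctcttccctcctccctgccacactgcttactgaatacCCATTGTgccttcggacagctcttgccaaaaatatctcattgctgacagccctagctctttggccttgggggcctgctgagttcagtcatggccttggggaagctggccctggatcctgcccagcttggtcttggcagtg
Eng, intron (chr2:32661692-32661991): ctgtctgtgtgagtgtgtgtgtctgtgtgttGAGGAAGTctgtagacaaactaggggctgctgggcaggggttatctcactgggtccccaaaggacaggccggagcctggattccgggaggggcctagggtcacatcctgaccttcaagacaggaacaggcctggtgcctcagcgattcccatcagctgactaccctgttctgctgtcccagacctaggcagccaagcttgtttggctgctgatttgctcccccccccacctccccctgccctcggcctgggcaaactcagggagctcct
Timp3, intron (chr10:86339668-86339967): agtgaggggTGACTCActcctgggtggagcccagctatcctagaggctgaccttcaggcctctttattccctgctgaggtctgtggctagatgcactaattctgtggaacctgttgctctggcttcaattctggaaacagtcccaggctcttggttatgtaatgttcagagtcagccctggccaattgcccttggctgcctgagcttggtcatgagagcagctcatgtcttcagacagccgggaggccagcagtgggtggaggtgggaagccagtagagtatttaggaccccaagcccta

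The region 1737 bp upstream of the Shank3 start held 10 member fragments in +RV, where 1.24 were expected at the rate of all barcodes. In the Eng intron, 15247 bp from the start, 8 fragments stood against 1.62. The Efhd1 region held 6 against 0.829, and the Timp3 region held 5 against 1.17. In −RV the members had 3, 2, 3 and 0 fragments in the Shank3, Eng, Efhd1 and Timp3 regions. The same choice gave regions in introns of Arhgap29 and Sparc, which held none of the 8 motifs. The limit of 5 member fragments lay above every expected number given here. An excess in +RV was therefore fixed by the choice, and these values are a description only.

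The 11 genes that chose the members had between 75 and 677 fragments each in +RV. As CPM (fragments scaled to a library of 1e6) per kb of window, this was 0.297 at Tie1, a receptor tyrosine kinase that works with Tek, and 0.971 at Egfl7, a secreted vascular factor. The longest windows were hit most often: Tspan18, a tetraspanin with a window of 138 kb, was hit in 36.8% of +RV members, and Tek, the angiopoietin receptor, and Ptprb, a phosphatase that acts on it, in 30.7% each. Cldn5, the tight junction protein claudin-5, has a window of 6.42 kb (chr16:18771847-18778262) and was hit in 9.05%. Of the members, 381 in +RV and 60 in −RV had fragments in exactly 2 of the genes and lie just inside the limit. Another 2491 and 296 barcodes had fragments in exactly 1 gene and lie just outside. At 3 or more genes stood 105 +RV and 4 −RV barcodes, with a highest number of 7 genes in a single +RV barcode.

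Member barcodes were deeper than the rest. The rule itself favours this, because a barcode with more fragments has more chances to hit 2 genes. Nuclear fragments per barcode in +RV had a median of 779.5 (lowest 410, highest 7491) in members and 619 in others, and in −RV 636.5 and 585. In +RV, 1.38% of barcodes with under 600 nuclear fragments outside the rule windows were members, against 10.9% of those with 1500 or more. When every +RV barcode was thinned to 500 nuclear fragments, leaving out 2652 shallower ones, 232 of 15968 met the rule, or 1.45%. In −RV, with 457 left out, 27 of 1949 did, or 1.39%. The intervals of these 2 shares (95%, exact binomial, counting error only), 1.27 to 1.65% and 0.915 to 2.01%, overlap. No doublet caller was run, and 2 barcode sequences occur in both sets.

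The barcodes were then read at 70 further endothelial genes whose fragments played no part in the rule. This list was drawn up with earlier results of these data known, so it is not an independent check of the label. All fragments inside the 11 windows were set aside, and the remaining counts were scaled to CPM within each group of barcodes. In +RV the 70 genes together held 4064 CPM in members (2098 fragments) and 2406 CPM in others, a ratio of 1.69 (95% interval 1.62 to 1.77). In −RV they held 3651 CPM in members (189 fragments) and 2356 CPM in others, a ratio of 1.55 (1.33 to 1.79). All intervals of ratios are exact, conditional on the summed fragments, and cover counting error only. Cells are not replicates, so they do not measure the spread between animals or preparations.

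The level was higher the more rule genes a barcode had hit. In +RV the 70 genes held 2324 CPM in barcodes with none of the 11, 2834 CPM with 1, 3875 CPM with 2 and 4722 CPM with 3 or more. In −RV the same steps were 2308, 2648, 3601 and 4707 CPM, the last from only 4 barcodes. B cell genes went the other way in +RV, with 823, 671, 539 and 356 CPM over the same steps. Housekeeping genes stood at 864, 815, 835 and 868 CPM. The rise was not particular to endothelial genes. Over the same +RV steps megakaryocyte genes had 61.3, 63.0, 89.8 and 122 CPM, the last from 14 fragments. Macrophage and monocyte genes had 388, 434, 439 and 503 CPM, while erythroid genes fell from 447 to 252 CPM.

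**Figure D1:**
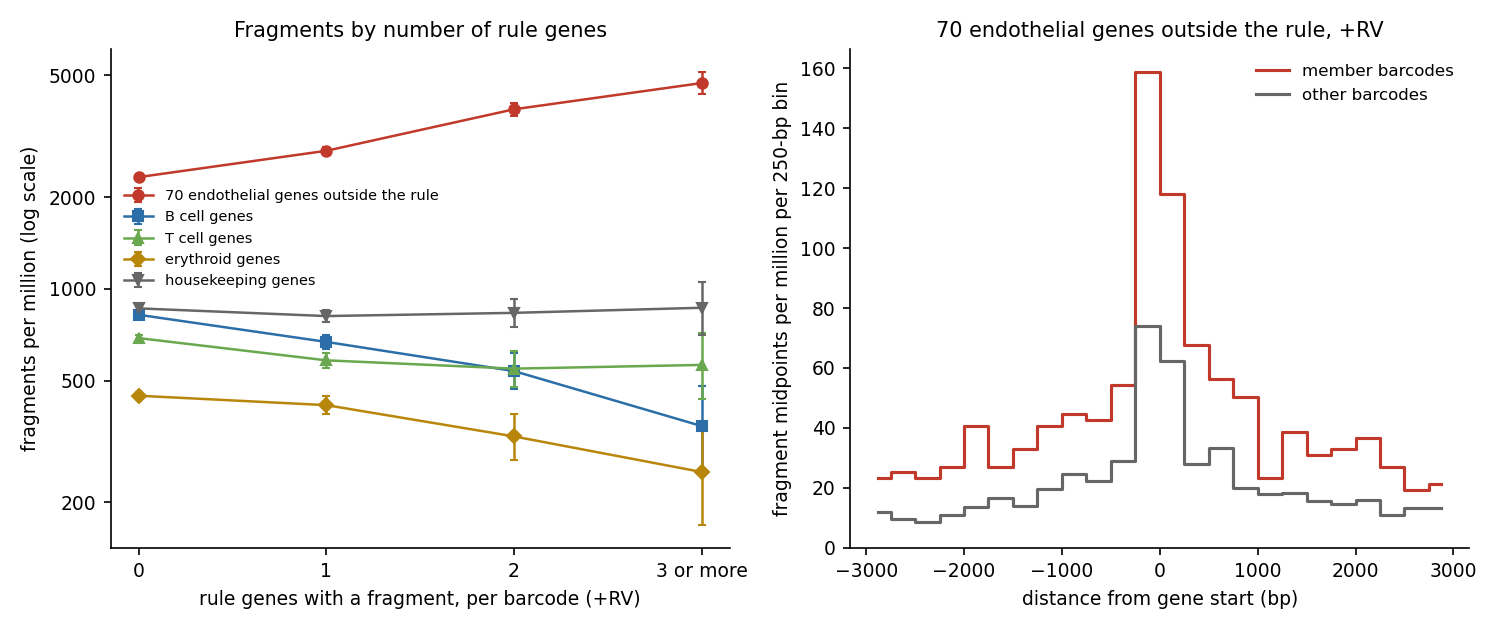
Left, CPM (log scale) in 5 gene lists against the number of rule genes hit per +RV barcode, with 95% Poisson intervals: the 70 further endothelial genes go from 2324 to 4722 and B cell genes from 823 to 356. Right, fragment midpoints as CPM in 250-bp bins around the annotated starts of the 70 genes in +RV: members (red) reach 159 in the bin before the start and other barcodes (grey) 73.9.

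The difference was present at gene starts and along the genes. In promoter windows, 1000 bp upstream to 200 bp downstream of a start, fragments lying within the 70 gene windows had a ratio of 2.02 in +RV (312 member fragments, interval 1.80 to 2.27). Distal bulk regions within the genes gave 1.505 (1.31 to 1.73), and the remaining sequence gave 1.66 (1.58 to 1.75). In −RV the 3 ratios were 1.81, 1.81 and 1.48. Over the rest of the genome the ratios in +RV were 1.08, 0.967 and 0.985. Members had a slightly larger share of all fragments in promoter windows, 16.4% against 15.1% in +RV, and 14.7% in others weighted to the depth of the members.

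A single barcode carried little of this signal. After thinning to 500 fragments outside the rule windows, 39.0% of 462 +RV members had 3 or more fragments in the 70 genes (interval 34.5 to 43.6%), against 12.9% of 15495 others. With 1 or more fragments the shares were 84.8% and 67.7%, so most barcodes of any kind carry such a fragment and the share in others is a background level. Unthinned, 67.9% of members and 25.2% of others had 3 or more. In −RV the thinned shares with 3 or more were 35.7% of 56 members and 13.05% of 1893 others. Left out as shallower were 24 members and 2639 others in +RV, and 8 and 449 in −RV.

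Single genes were taken up (tested, in the sense of a limit on size and with no p-value) where at least 10 member fragments were expected from the rate of the whole set, and were called higher at a ratio of 1.5 or more. In +RV, 11234 genes were tested and 994 were called, 8.85% of them, and the median log2 ratio over all was -0.02. Of the 70 endothelial genes 40 were tested and 18 were called, with a median log2 ratio of 0.49, and none was called lower. When others were weighted to the depth of members, 20 of the 40 were called. The 18 were 45% of those tested. Counts of called genes in each list below are to be read beside the same 8.85%. In −RV 230 genes were tested and 21 called, 9.13%, and none of the 70 was deep enough to be tested.

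Of 11 growth factor receptors, 9 were tested and 4 called, beside 8.85% of all genes, and the median log2 ratio of the 9 was 0.29. Together the 11 had a ratio of 1.64 in +RV (1.49 to 1.80) and 1.62 in −RV (1.15 to 2.21). Eng, endoglin, the co-receptor for bone morphogenetic proteins (chr2:32646595-32682669), held 110 CPM in members and 38.8 CPM in others in +RV, a ratio of 2.85 (2.13 to 3.75). In −RV it held 96.6 and 35.7 CPM, from 5 member fragments. Flt1, the VEGF receptor that also acts as a decoy, had 124 against 53.9 CPM, a ratio of 2.30 (1.75 to 2.97), and in −RV 96.6 against 49.3 CPM. Bmpr2, the type II receptor of the same pathway as Eng, had a ratio of 1.71. Calcrl, a receptor of the adrenomedullin system, had 1.16 and Nrp1, a VEGF co-receptor, 1.13, with intervals that span 1. The lowest of the tested receptors, S1pr1, the sphingosine-1-phosphate receptor that lymphocytes also use, had 1.12 (0.656 to 1.79).

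Junction and surface proteins had a ratio of 1.88 in +RV (1.68 to 2.10) and 1.71 in −RV (1.16 to 2.44), with 3 of 6 tested genes of 13 called. Of the 6, the adhesion receptors Adgrf5 and Adgrl4 had the highest ratios: Adgrf5 held 105 CPM in members and 35.1 CPM in others in +RV, a ratio of 2.98, and 174 against 42.2 CPM in −RV. Adgrl4 had a ratio of 2.34 in +RV and Jam2, a junctional adhesion molecule, 1.94. Emcn, the sialomucin endomucin, had the lowest value of the 6, 0.69, from 7 member fragments (0.275 to 1.44). Pecam1, CD31, which platelets and leukocytes share with endothelium, had 1.19 (0.948 to 1.48) and was not called. Among the genes too shallow to test, Robo4, a guidance receptor of vessels, had 4.26 from 18 member fragments and Cd34 3.60 from 23.

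Transcription factors had the highest ratio of the 6 groups in +RV, 2.13 (1.83 to 2.46), and 1.202 in −RV from 12 member fragments (0.614 to 2.13). Only 3 of 10 were deep enough to test. Erg, the ETS factor that maintains endothelial identity, held 159 CPM in members and 75.4 in others, a ratio of 2.11 (1.66 to 2.64), and 135 against 90.9 CPM in −RV. Hey1, a Notch target, reached 1.502 and its relative Hey2 had 1.09. A second list of factors that blood and endothelium share gave 1.07 in +RV (0.991 to 1.16): Klf4 at 2.05 and Tal1 at 1.82 were highest of its 10 tested genes, and Lmo2 at 0.839 and Ets1 at 0.808 lowest, with 3 called.

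Notch pathway genes and genes of arterial or venous identity had a ratio of 1.85 in +RV (1.64 to 2.07) and 1.48 in −RV (0.928 to 2.25), with 3 of 7 tested genes of 12 called. Unc5b, a netrin receptor of arteries and sprouting vessels, held 83.3 CPM in members and 27.7 in others in +RV, a ratio of 3.01, but 19.3 against 27.3 CPM in −RV, where members had 1 fragment. The arterial ligand Efnb2 had 2.05 and the Notch ligand Jag1 1.90. Bmx, a kinase of arterial endothelium, was the lowest of the 7 with 0.973.

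Sinus, lymphatic and scavenger genes were divided. Stab2, the hyaluronan scavenger receptor of sinusoidal endothelium (chr10:86841198-87008025, minus strand), had the highest ratio of all tested genes in the 6 groups: 211 CPM in members against 65.2 CPM in others in +RV, a ratio of 3.24 (2.63 to 3.95). In −RV it had 14 member fragments, 270 against 54.5 CPM, a ratio of 4.96 (2.60 to 8.79). It was also the only called gene of 6 tested, and the median log2 ratio of the 6 was -0.13. Cd36, a fatty acid receptor, had 1.48, Mrc1, the mannose receptor, 0.95, and Selp, P-selectin, was the lowest of the 6 with 0.708 (0.402 to 1.16). The list as a whole had 1.41 in +RV (1.27 to 1.57) and 1.65 in −RV (1.19 to 2.21).

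Signalling and GTPase genes had a ratio of 1.63 in +RV (1.47 to 1.81) and 1.44 in −RV (0.994 to 2.02), and 5 of 9 tested genes of 13 were called. Shank3, a scaffold protein better known from synapses, was the highest of the 9 with 2.86 (2.02 to 3.96), 79.4 against 27.8 CPM, and its upstream region is the first of those printed above. Exoc3l2 had 2.26 and Arhgap29, a GTPase-activating protein that works with Rasip1, 2.12. Heg1, a partner of the vascular adaptor CCM1, was the lowest of the 9 with 0.959. Myct1, too shallow to test, had 4.05 from 16 member fragments.

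The 30 genes of the 6 groups that were too shallow to test held 470 member fragments in +RV, with a summed ratio of 2.95 (2.68 to 3.25), and 39 in −RV, with 2.51 (1.76 to 3.48). Without the filter, 43 of the 70 genes had a ratio of 1.5 or more, where 16.5% of all genes with a fragment did. Examples chosen after their values were seen are Flt4, the lymphatic VEGF receptor, with 40 member fragments against 9.61 expected, the factor Sox17 with 14 against 3.32, and Nkx2-3, a homeobox gene needed for spleen vessels, with 19 against 4.86.

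**Figure D2:**
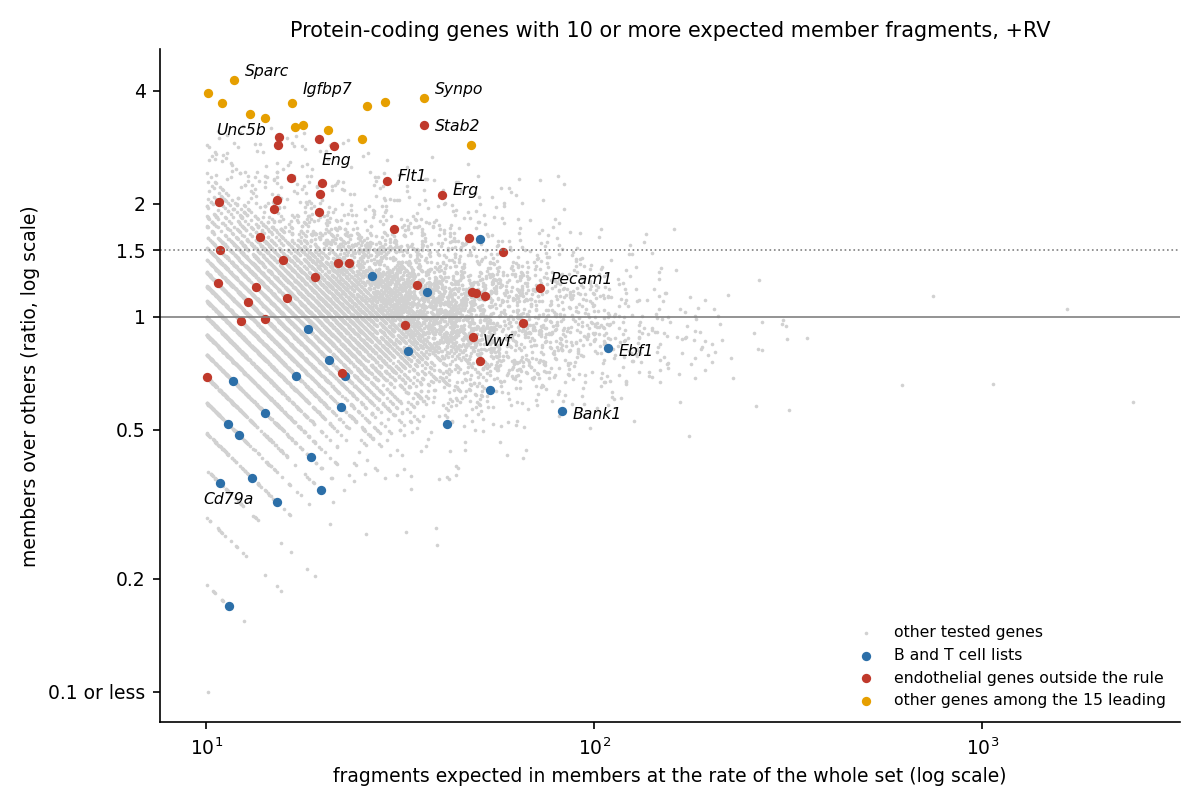
Each point is 1 of 11234 tested genes in +RV, placed by the member fragments expected (log scale) and by the ratio of members over others (log scale, values under 0.1 drawn at 0.1). Endothelial genes outside the rule (red) reach 3.24 at Stab2, B and T cell genes (blue) lie mostly under 1, and the dotted line marks 1.5.

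Among all tested genes, the 15 with the highest lower bound of the ratio in +RV were Synpo, Sparc, Igfbp7, Dpysl3, Fam171a1, Efhd1, Stab2, Lrrn1, Cpvl, Jam3, Eva1c, Zfp423, Wwtr1, Timp3 and Slco2a1. Synpo, the actin-binding protein synaptopodin, held 244 CPM in members against 63.9 CPM in others, a ratio of 3.82 (3.14 to 4.61). In −RV it had 5 member fragments and 1.42 (0.451 to 3.41), the lowest of the 15 there, next to Eva1c with 1.49. Igfbp7, a matrix protein secreted by vessel walls, held 190 against 50.9 CPM (3.73, 2.99 to 4.62), and in −RV 193 against 51.3 CPM (3.77, 1.74 to 7.30). Sparc, a collagen-binding matrix protein, had 4.27, Wwtr1, the transcriptional coactivator TAZ, 3.14, and Timp3, an inhibitor of matrix proteases, 3.19. Slco2a1, a prostaglandin transporter, had 2.98 in +RV and 6.22 in −RV (3.23 to 11.2), from 14 member fragments.

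These genes were then read in the −RV barcodes, which had no part in their choice. All 15 had a ratio above 1 in −RV, where 44.2% of the genes tested in +RV did, and together they held 106 member fragments with a ratio of 3.40 (2.75 to 4.16), beside 3.40 in +RV. The 994 genes called in +RV had a summed ratio of 1.71 in −RV (1.65 to 1.77), and 68.5% of them were above 1. The 18 called endothelial genes had 2.13 (1.66 to 2.70), and the 22 tested but not called had 1.05 (0.825 to 1.33). Both sets came from nuclei prepared together, so they are separate barcodes but not separate animals.

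In +RV 1315 of all tested genes, 11.7%, had a ratio of 1/1.5 or less in members, and 8 of 12 tested B cell genes, 5 of 11 tested T cell genes and 3 of 8 tested erythroid genes did. B cell genes had a ratio of 0.623 in +RV (0.549 to 0.706) and 0.588 in −RV (0.363 to 0.904). Cd79a, part of the B cell receptor, held 7.75 against 21.5 CPM and Fcrla 9.68 against 26.1 CPM, while Ebf1 at 0.825 and Blk at 0.765 were the highest of the 12. T cell genes had 0.8199 (0.726 to 0.923) and 0.835 (0.552 to 1.21), the latter with an interval that spans 1. Of the 11 tested, Cd3d, with 2 member fragments, and Cd5 were lowest at 0.169 and 0.320, and Cd247, the only one called higher, at 1.61 and Lck at 1.28 were highest. Erythroid genes had 0.705 (0.599 to 0.825) and 0.506 (0.275 to 0.854), with Ank1 at 1.01 and Sptb at 0.83 the highest of the 8.

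The 5 genes with the lowest upper bound in +RV were BC147527, Gm17535, Stap1, Gm8369 and Ifit1bl1. Stap1, an adaptor protein of B cells, held 21.3 CPM in members and 78.0 CPM in others. BC147527 had no member fragment, with an upper bound of the ratio of 0.353. Ifit1bl1 has near copies in the genome, so its fragments may be shared with them. For the others of the 5, copies and repeats in the genome were not examined.

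In +RV the summed ratios of stromal and myeloid lists lay nearer to 1 than the 1.69 of the 70 endothelial genes. Macrophage and monocyte genes had a ratio of 1.15 in +RV (1.00 to 1.31) and 0.767 in −RV (0.426 to 1.28). Of 19 genes 9 were tested, 2 of them called higher and 2 lower: Mertk, a receptor for apoptotic cells, at 2.05 and Maf at 1.57, and Adgre1, F4/80, at 0.608 and Itgam at 0.484. Smooth muscle and perivascular genes had 1.34 (1.11 to 1.61) and 1.04 (0.469 to 2.00). Of 12 genes 4 were tested and 2 called higher, beside 8.85% of all tested genes. Notch3 had 1.61, Myh11 1.59, Pdgfrb 1.26 and Acta2 0.891. The +RV interval of the smooth muscle list lies above 1 and overlaps that of the sinus, lymphatic and scavenger list, 1.27 to 1.57. Fibroblast and reticular genes had 1.03 (0.791 to 1.31) and 0.726 (0.233 to 1.72). Only 1 of these 15 genes was deep enough to test in +RV, and it was not called. Sparc and Igfbp7, matrix proteins among the 15 leading genes above, are in none of these lists. Among lists given only as sums, dendritic cell genes had 1.07 and 0.950, plasma cell genes 0.868 and 1.16, NK cell genes 0.635 and 0.768, neutrophil genes 0.676 and 1.26 and neuronal genes 1.08 and 1.03.

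Some lists of cells that are rare in spleen, or foreign to it, were also higher. Megakaryocyte genes had a ratio of 1.57 in +RV (50 member fragments, 1.16 to 2.09) and 0.572 in −RV, from 2 fragments. Hepatocyte genes had 1.63 (61 fragments, 1.24 to 2.12) and 3.75 (15 fragments, 2.04 to 6.44). Pancreatic acinar genes had 1.51 (1.19 to 1.89) in +RV and 0.210 (0.0253 to 0.764) in −RV, and 53 of the 79 member fragments of +RV lay in barcodes with 1500 or more fragments. Housekeeping genes had 0.984 (0.892 to 1.08) and 1.24 (0.916 to 1.64). The part of cells of other types in these values was not tested. B cell genes remained at 498 CPM in members, so the members are described as barcodes and not as endothelial cells.

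**Figure D3:**
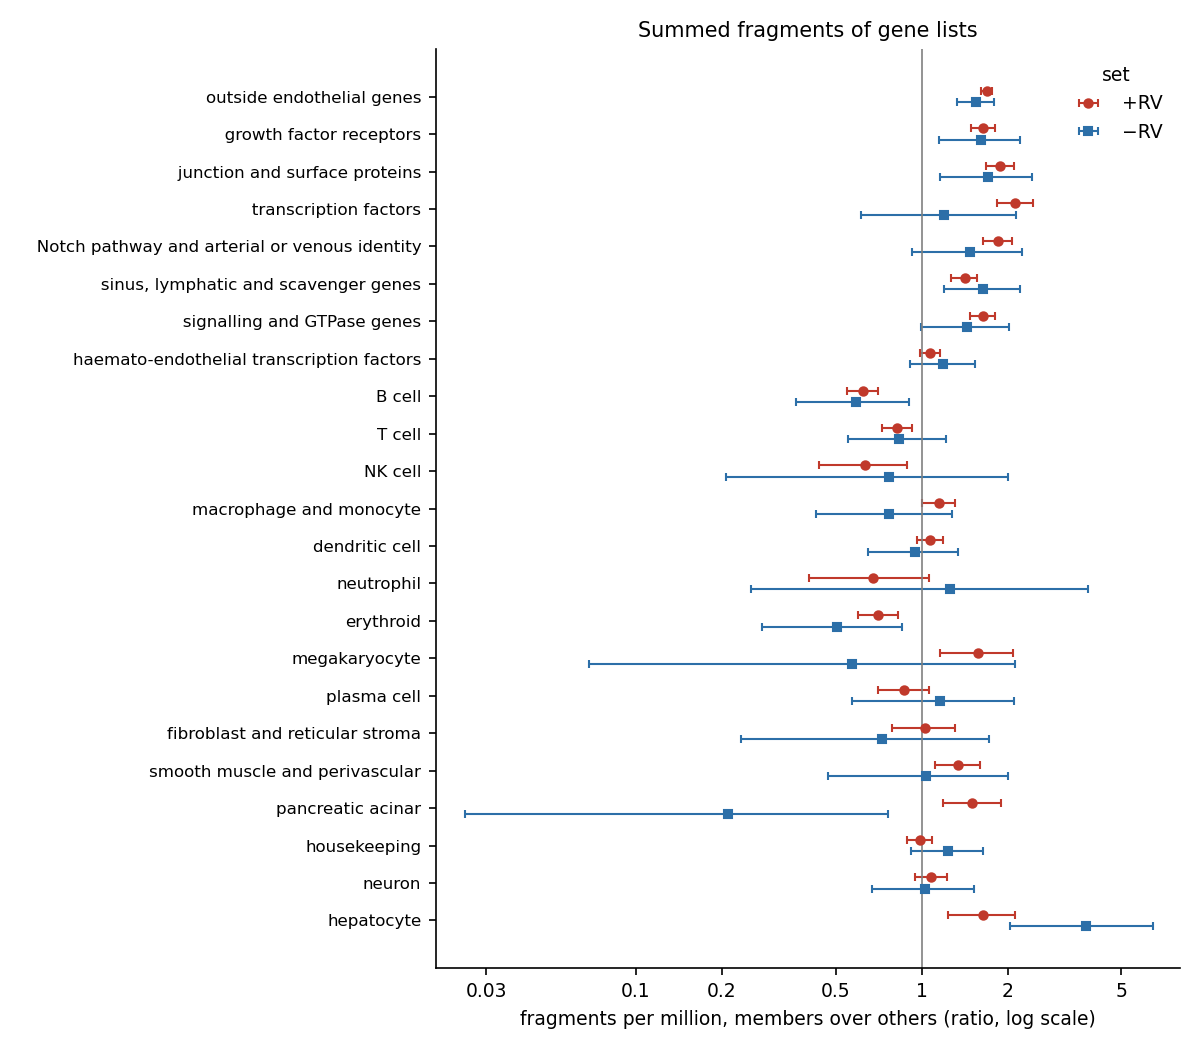
Ratio of CPM in members over others (log scale) for each gene list, with 95% exact intervals, in +RV (red circles) and −RV (blue squares). In +RV the intervals of all 6 endothelial groups lie above 1, in −RV those of transcription factors, Notch pathway and signalling genes reach under 1, and B cell and erythroid genes lie under 1 in both.

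The 20 barcoded Tn5 reactions split each set technically. In +RV the ratio at the 70 genes was above 1 in 19 of 20 reactions, from 0.940 to 2.17 with a median of 1.62, over 5 to 57 members each. Other barcodes held 2317 to 2567 CPM, and members held more than the highest of these in 19 reactions. In −RV, with 1 to 9 members a reaction, it was above 1 in 15 of 18 reactions that had a member. The −RV ratios went from 0.577 to 2.47, and members held more than the highest value of other barcodes in 10 reactions.

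The ratio was lower in deep barcodes. In +RV it was 2.21 (1.97 to 2.47) under 600 nuclear fragments, 2.13 from 600, 2.00 from 800, 1.51 from 1000 and 1.26 (1.15 to 1.38) from 1500. The 74 members in the deepest class held 37.2% of all member fragments. B cell genes went the other way, from a ratio of 0.366 in the shallowest to 0.846 in the deepest class. The part of depth, or of barcodes that hold more than 1 nucleus, was not tested. In −RV the ratios were 1.89, 1.41, 1.74, 1.30 and 1.36, and the intervals of all 5 overlap. Those from 600 (0.994 to 1.95), from 1000 (0.804 to 2.00) and from 1500 (0.888 to 2.03) reach under 1.

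**Figure D4:**
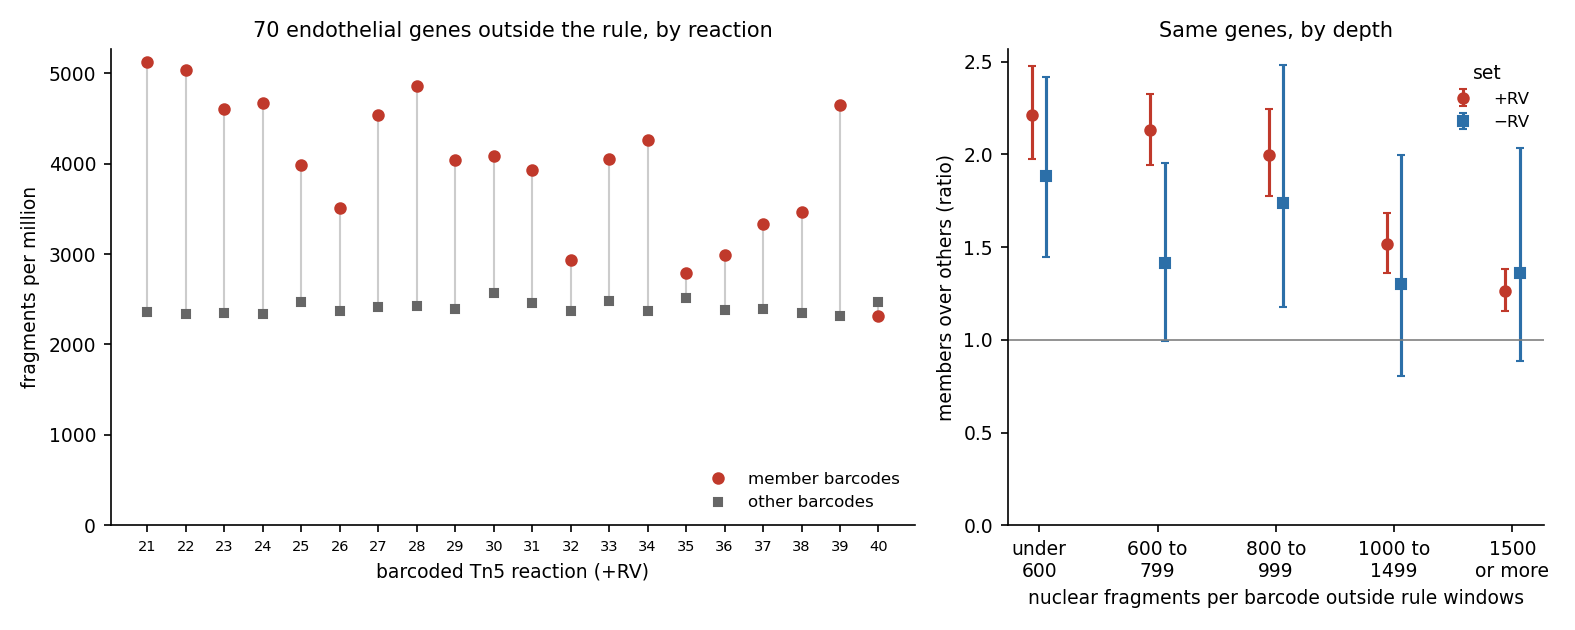
Left, CPM in the 70 endothelial genes outside the rule in members (red) and others (grey) of each +RV Tn5 reaction: members lie above others in 19 of 20. Right, the ratio of members over others by nuclear fragments per barcode with 95% exact intervals, which in +RV (red) goes from 2.21 to 1.26.

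The genes also told barcodes apart unequally. The +RV barcodes with a fragment at Cldn5, 72 in all, had a ratio of 1.97 at the 70 genes over barcodes without one (1.74 to 2.22). Those with a fragment at Tie1 had 1.66, Cavin2, a caveolar protein, 1.53 and Nova2, an RNA-binding protein, 1.52. Plvap, the protein of endothelial diaphragms, gave 1.47, Ptprb 1.44, Kdr, the main VEGF receptor, 1.42, Tspan18 1.36 and Egfl7 1.33. Barcodes with a fragment at Tek (1.16, 1.10 to 1.22) and at Cdh5, VE-cadherin (1.12, 1.06 to 1.18), had the lowest values. In −RV the order was not the same: Cldn5 gave 1.18 (0.748 to 1.78) from 15 barcodes, Tie1 0.950 (0.542 to 1.54) from 8, and Cdh5 1.23 (1.02 to 1.48). These groups overlap and differ in depth.

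Distal bulk regions, 28647 in all, were searched on both strands for 8 motifs in 300 bp around their summits. SOX (ACAATGG) was in 3.47% of regions, and these took 3.67% of the distal fragments of members and 3.17% of those of others in +RV, a ratio of 1.16 (1.09 to 1.22). In −RV the ratio was 1.33 (1.11 to 1.58). AP-1 (TGACTCA), in 8.46% of regions, had 1.13 (1.09 to 1.17) and 1.25 (1.12 to 1.398). RUNX (TGTGGTT), in 12.8% of regions, had 0.781 (0.755 to 0.808) and 0.768 (0.682 to 0.862). The octamer (ATGCAAAT) of B cell factors, in 2.97%, had 0.787 and 0.671. PU.1 (GAGGAAGT), in 11.2%, had 0.893 (0.863 to 0.923) and 0.917 (0.816 to 1.03), the latter with an interval that spans 1.

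The ETS motif (ACAGGAAG), in 12.5% of regions, had 0.979 (0.950 to 1.01) in +RV and 1.04 (0.941 to 1.15) in −RV. Its letters overlap in part with those of PU.1. The letters AGATAAG, bound by the GATA family, in 5.09% of regions, had 0.981 and 0.893, and EBF (CCCNNGGGA), in 5.96%, had 0.998 and 1.02. A match is a stretch of letters, not a bound site.

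**Figure D5:**
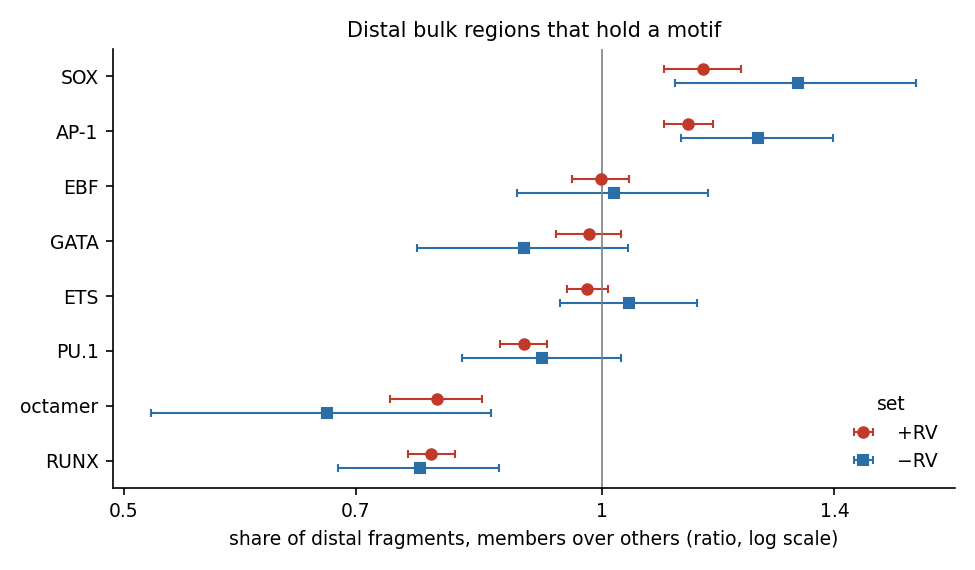
Share of distal fragments lying in regions that hold a motif, as the ratio of members over others (log scale) with 95% exact intervals, in +RV (red circles) and −RV (blue squares). SOX and AP-1 lie above 1 and octamer and RUNX under 1 in both sets.

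In the bulk libraries, promoters of 20 of the 70 genes, 28.6%, touched a peak in each −RV library, and 37, 52.9%, did so in each +RV library. Among all protein-coding genes the shares were 48.3% and 54.2%. Single libraries had 25 and 23 such promoters in −RV and 41 and 39 in +RV. Flt1, Jam2 and Adgrl4, called higher in the members, had a promoter peak in both libraries of +RV but in none of −RV, and Stab2, Erg and Shank3 had none in any library. In bulk tissue, fewer cells of a type and less signal per cell cannot be told apart.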

How the data were processed

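Positions were on mm10. The single-cell values deposited by the authors are fragments, given by position and barcode (other than any unit of expression; methods: BWA to mm10, duplicates removed, reads cut short), of barcodes with at least 500 fragments that they had also selected on a fraction at TSS. Repeats of a position within a barcode, 0.717% of lines in +RV and 0.565% in −RV, were kept. For bulk libraries they deposited peak lists whose score, fold enrichment (ratio) and −log10 q belong to single peaks and served here to rank or filter. SEACR 1.3, Picard 1.119, SAMtools 1.15 and Bowtie2 2.4 are listed in the submitters' processing notes without their roles.

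The sets held 13703580 (+RV) and 1592372 (−RV) nuclear fragments on the main chromosomes, of which 3889 and 456 lay in the 11 windows. After these were set aside, members had 516266 and 51763 fragments. Fragments were counted by midpoint in 21911 protein-coding genes of GENCODE vM21 (body plus 5 kb upstream), of which 15 overlapped a rule window and were left out. The whole-set rate behind the limit of 10 expected fragments includes the members. Ratios and exact intervals were computed with Python 3.11.15 and scipy 1.17.1 and tested on simulated counts. These counts were independent Poisson draws for each gene, so spread between barcodes was not tested. Members and gene lists were chosen with earlier results of these data known. Genes were named by rule: in each endothelial group the 3 highest and the lowest tested ratio in +RV, over all tested genes the 15 highest lower and 5 lowest upper bounds, and in other lists described the 2 highest and 2 lowest tested ratios, except that the lowest erythroid genes are not reported here. Pecam1 and further genes outside the rule were chosen after their values were seen.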

Additional observations from a re-analysis of the deposited data

Results flagged for a closer look

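Pancreatic acinar genes differed between the sets in opposite directions: members over others had a ratio of 1.507 in +RV (79 member fragments) and 0.2095 in −RV (2 member fragments). The difference was not tested. In +RV the ratio was 1.067 with others weighted to the depth of members, and the level was 100.2, 108.6, 194.5 and 8.68 CPM in barcodes with 0, 1, 2 and 3 or more rule genes, the last from 1 fragment.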

How the results depend on the processing

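The number of members depended on the rule. Of 486 (+RV) and 64 (−RV), 105 and 4 were left at 3 or more rule genes, 232 and 27 after thinning to 500 fragments, and 174 and 22 without the 3 longest windows (Tek, Tspan18 and Ptprb). The ratio at the 70 endothelial genes stayed above 1 under every alternative run, except in 1 +RV and 3 −RV Tn5 reactions taken apart. From 1.69 in +RV it went to 1.927 at 3 or more rule genes, 1.88 without the 3 longest windows, 1.392 in barcodes with 1000 or more fragments, 2.132 in those with fewer, 1.976 without the 5% deepest, 2.142 in promoter windows, 1.563 with fragments of 50 to 100 bp, 1.786 without genes that blood cells also use and 1.921 with every barcode weighted equally, an alternative chosen after seeing the data, as were weighting by gene-body share (1.662) and each Tn5 reaction apart. In −RV it went from 1.55 to 1.966 at 3 or more rule genes, from only 4 barcodes, with an interval (0.98 to 3.52) that spans 1. Called endothelial genes went from 18 of 40 to 12 of 40 at a fold of 2 (2.00% of all genes), 32 of 56 at 5 expected fragments (11.3%) and 43 of 70 with no filter (16.5%), and all called genes from 994 to 225 at a fold of 2 and 1639 at 5 expected fragments. The ratio for the ETS motif in +RV, 0.9787, was 0.9323 in regions of all 4 bulk libraries, 1.02 with others weighted to member depth, and 0.9492 to 0.9755 when each bulk library was left out, lowest without +RV replicate 1. Acinar genes in +RV reversed from 1.507 to 0.7052 without the 3 longest windows. The causes were not tested. No paired analysis was possible because the deposited single-cell fragments pool the replicates and no result comes from a test over samples. Depth limits single genes, most of all in −RV, where members had 51763 fragments.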
